A study of Homo sapiens with 39 samples.

Results

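Untreated wild type hTERT-RPE1 cells were set against untreated wild type CHP-134 cells, gene by gene, at the level of messenger RNA. hTERT-RPE1 (RPE1 below) is an untransformed human line from retinal pigment epithelium that was immortalised with telomerase, and CHP-134 is a human neuroblastoma line. The contrast rested on 9 RPE1 and 3 CHP-134 libraries of the 39 in the series. The authors deposited 5 tables, each of which compares an altered group with its control and gives a Mean Count over both groups and the log2 fold change, with no value per library. The wild type level of a gene was therefore worked out from its Mean Count and its fold change in the table of RPE1 TRIM37 knockout against wild type (9 libraries a group) and in the table of CHP-134 TRIM37 mutant clone 1 against wild type (3 libraries a group). Each level is given in ppm, parts per 1000000 of the summed Mean Count of its table. Of 23710 genes, 12305 had a Mean Count of 100 or more in either table and are called measured, and 9711 of these reached 100 in both.

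The other 7 groups served to show how far a level moves within a line. They were the RPE1 TRIM37 knockout (9 libraries), 2 RPE1 clones with an inducible TetOn-TRIM37 transgene (clones 4 and 5), each untreated and with 1 µM doxycycline for 24 h, and 2 CHP-134 clones labelled as partial TRIM37 knockouts, with 3 libraries in each of these 6 clonal groups. RPE1 cells grew in DMEM/F12 and CHP-134 cells in RPMI, both with fetal bovine serum. Line, medium and library preparation cannot be told apart in this contrast. The tables give 1 pooled wild type level per gene and line, and no test of the contrast was run. A gene was called when its ratio reached 4-fold, which is 2 on the log2 scale. A wild type level under the floor, which is that of a count of 10 (0.273 ppm in RPE1, 0.345 in CHP-134), was raised to the floor before a ratio was taken. A fold from a raised level is a lower bound. The SE beside a log2 ratio of RPE1 over CHP-134 is approximate, comes from the authors' SEs and covers only the spread between libraries within a table. The labels number the wild type RPE1 libraries in 3 sets of 3 and those of the knockout from 1 to 9, and do not say whether the libraries, or the sets, were separate cultures. Mean Count covers a wild type and an altered group, so a gene scarce in both wild types could pass through an altered group. A gene scarce in all these groups was not measured. One scarce in 1 line was measured only through the other. It had to be higher there, unless an altered group carried the count. Counts over the measured members of a list therefore describe those members alone.

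TRIM37 is a ubiquitin ligase that limits centrosome assembly in the absence of centrioles, and PLK4 is the kinase that starts centriole duplication. The study, by its title, asked how TRIM37 sets the vulnerability of cancer cells to PLK4 inhibition. Neuroblastoma arises from the sympathoadrenal neural crest, and its adrenergic state is held by a circuit of transcription factors that includes HAND2, GATA3 and, in tumours with amplification of the gene, MYCN. Cells of its mesenchymal state instead express matrix, caveolar and AP-1 genes. RPE1 is an adherent epithelial line that spreads on plastic, in which YAP1 and WWTR1, the co-activators restrained by the Hippo pathway, can enter the nucleus and act with TEAD factors.

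At the 4-fold limit 1754 of the 12305 measured genes (14.3%) were higher in RPE1 and 1517 (12.3%) were higher in CHP-134. For 1633 and 1398 of all measured genes the whole approximate 95% interval of the ratio lay past 4-fold. Both counts include genes with a level raised to the floor. Their ratio is a lower bound, and the interval does not describe the spread of the raised level. The ratios reached far beyond the limit in both directions, with 114 genes at a log2 ratio of 8 or more and 104 at -8 or less. Levels were raised to the floor in CHP-134 for 597 of the genes higher in RPE1, and in RPE1 for 725 of those higher in CHP-134. A Mean Count of 100 or more in the RPE1 table and under 1 in the CHP-134 table was found for 341 genes, and the reverse for 389. The remaining 9034 genes (73.4%) lay within 4-fold, and 6395 (52% of all measured) lay within 2-fold. The median log2 ratio was -0.22 over all measured genes and -0.23 over those at 100 or more in both tables, so a list median near this value shows no shift against the rest. The authors' Status was Outlier in either table for 858 of the measured genes, and these were kept. Without them 1667 genes were higher in RPE1 and 1300 in CHP-134, of 11447.

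The wild type level of CHP-134 was also worked out from the second mutant clone's table, which holds the same wild type libraries. The log2 ratios from the 2 tables differed with an SD of 0.00979 over 9677 genes and by 0.24 at most. With an untreated TetOn clone in place of wild type RPE1, 1521 (clone 4) and 1591 (clone 5) of the 1754 genes remained 4-fold higher in RPE1. Of the 1517 genes higher in CHP-134, 1432 and 1437 remained so. In 1279 genes (10.4% of measured) the lowest of the 6 RPE1 groups was 4-fold or more above the highest of the 3 CHP-134 groups, and in 1241 (10.1%) the lowest CHP-134 group was 4-fold or more above the highest RPE1 group.

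**Figure D1:**
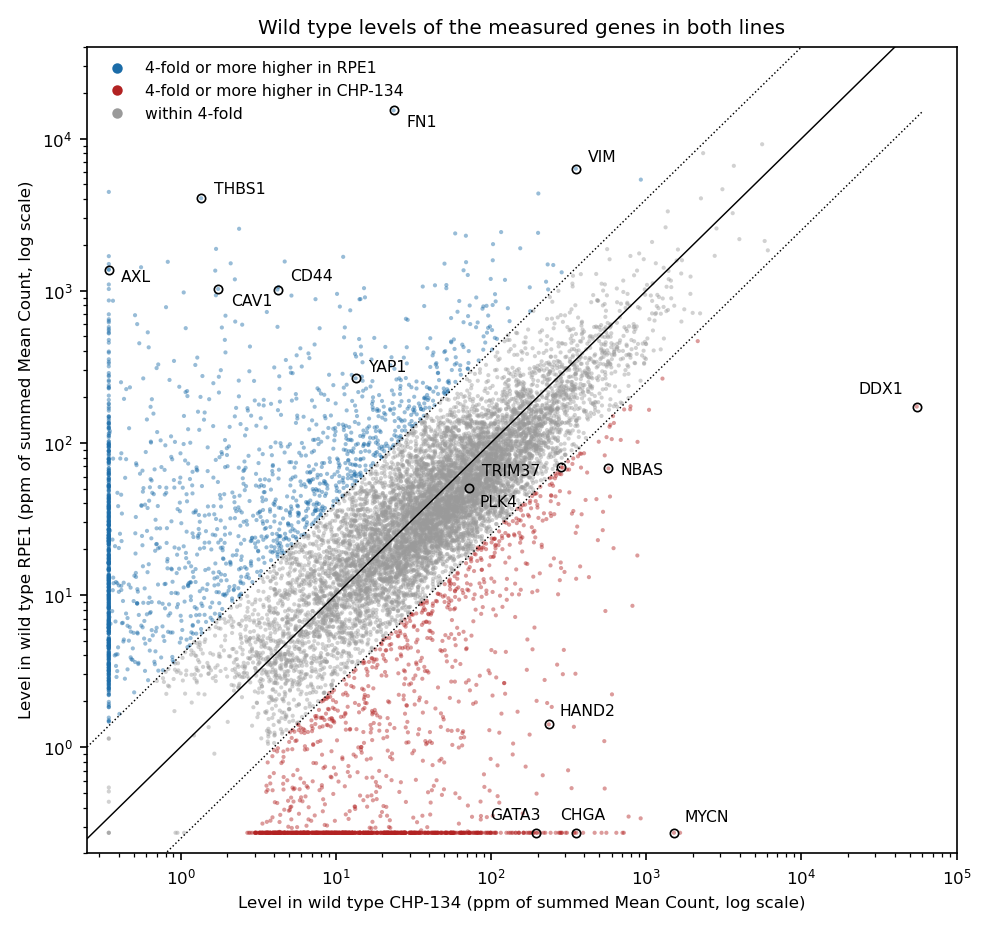
Level in wild type RPE1 (y axis) against level in wild type CHP-134 (x axis), both in ppm of summed Mean Count on log scales. Each point is a measured gene (XIST, TSIX and Y-linked genes are not drawn), levels under the floor sit at the floor, the solid line marks equal levels and the dotted lines mark 4-fold. Dense points lie along the solid line, while FN1, THBS1 and CAV1 sit far on the RPE1 side and MYCN, HAND2 and DDX1 far on the CHP-134 side.

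Of the marker genes, CAV1 and CD44 were higher in RPE1 and GATA3 was higher in CHP-134. CAV1, which encodes the main coat protein of caveolae, stood at 1027 ppm in wild type RPE1, 1525 in the knockout, 987 and 869 in TetOn clone 4 without and with doxycycline, and 860 and 750 in clone 5. In CHP-134 CAV1 stood at 1.75 in wild type, 2.33 in mutant clone 1 and 0.424 in mutant clone 2. The groups of both lines were apart by more than 2 orders of magnitude at every pairing, and the wild type log2 ratio was 9.20 (approximate SE 0.13). CD44, a hyaluronan receptor and a marker of the mesenchymal state, was between 1017 and 1521 in the 6 RPE1 groups and stood at 4.21, 0.705 and 0.189 in CHP-134 wild type, clone 1 and clone 2. Its wild type log2 ratio was 7.92 (approximate SE 0.18). GATA3, a transcription factor of sympathetic neurons, stood at 195 in wild type CHP-134, 230 in clone 1 and 331 in clone 2. In RPE1 GATA3 was at 0.119 in wild type, 2.75 in the knockout and 0.0129 to 0.032 in the TetOn groups, which makes wild type CHP-134 at least 716-fold higher.

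Retinal pigment epithelial genes were largely missing from RPE1. Of 22 such genes only 8 were measured. The visual cycle and pigment genes RPE65, RLBP1, TYR, TYRP1, DCT and LRAT each stood at or below 0.245 ppm in wild type RPE1. Of the 8 measured, 6 were higher in RPE1, among them 2 keratin genes, 1 (MERTK) lay within 4-fold, and SERPINF1, which encodes pigment epithelium-derived factor, was higher in CHP-134 at 11.8 against 0.192. MITF, which drives pigment cell genes, was at 73.6 against 8.41 in CHP-134 (8.75-fold), OTX2, a head and eye homeobox factor, was at 24.2 against 4.35 (5.56-fold), and PAX6, which specifies the eye, was at 39.4 against 0.139 (at least 114-fold). SIX3, another eye field homeobox gene, was at 65.3 against 2.54. It had been placed in the adrenergic list and was that list's only member called in the RPE1 direction. Markers of other cell types were close to nothing in both lines. None of 12 haematopoietic and endothelial markers was measured, SOX10, which defines Schwann cells, was listed at 0 in both wild type lines, and only 2 of 8 Schwann cell markers were measured.

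Epithelial keratins were an RPE1 feature. KRT8 was at 649 ppm in wild type RPE1 and 431 to 541 in its other 5 groups, and its partner KRT18 was at 619 with a range of 391 to 791. In the 3 CHP-134 groups neither went above 0.0186, so wild type RPE1 was at least 1882-fold and at least 1794-fold higher. Of 14 measured keratin and junction genes 11 were higher in RPE1 and none in CHP-134, with a median log2 ratio of 6.82. The gap junction gene GJA1 (532 against 0.615) and the desmosomal plaque gene DSP (228, listed at 0 in CHP-134) were among them. Of the 22 listed genes, 13 had a Mean Count under 10 in the CHP-134 table and could be measured only through RPE1. CDH1, the classical epithelial cadherin, was not measured and stood at 0.0605 in RPE1, while CDH2, the mesenchymal and neural cadherin, was at 490 against 106.

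Most adrenergic transcription factors were higher in CHP-134. Of 20 measured adrenergic transcription factors 18 were called higher in CHP-134, with a median log2 ratio of -4.37. Of the 24 listed, 12 had a Mean Count under 10 in the RPE1 table and could be measured only through CHP-134. HAND2, a basic helix-loop-helix factor of sympathetic neurons, was at 236 ppm in wild type CHP-134 against 1.41 in wild type RPE1, or 167-fold. It stood at 287 and 260.1 in the mutant clones and at 1.15 to 2.34 in the other 5 RPE1 groups, so the lines did not overlap. INSM1 (32.9), EYA1 (47.3), PHOX2A (64.5) and HAND1 (6.22) were listed at 0 in wild type RPE1. KLF7 was the member that lay within 4-fold, at 37.2 in CHP-134 and 66.7 in RPE1.

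Neuronal genes went the same way with larger ratios. Of 31 measured genes of the neuronal cytoskeleton and synapse 26 were higher in CHP-134 and none in RPE1, and the median log2 ratio was -6.88. Of the 32 listed, 19 had a Mean Count under 10 in the RPE1 table and could be measured only through CHP-134. The RNA-binding proteins ELAVL2, ELAVL3 and ELAVL4 stood at 188, 199 and 392.5 in CHP-134, and ELAVL2 and ELAVL4 were listed at 0 in RPE1. The neurofilament genes NEFL, NEFM and NEFH (42.6, 174 and 281) and NCAM1 (273), an adhesion molecule of neurons, were each at or below 0.153 in RPE1. CHRNA3, a subunit of the ganglionic acetylcholine receptor, was at 309 in wild type CHP-134 and 338 and 404 in the clones, against 0.00799 in wild type RPE1. STMN2, a microtubule regulator of growing axons, was at 284 and 364 in wild type and clone 1 and at 23.7 in clone 2, so its CHP-134 level moved by more than 10-fold among the 3 groups while RPE1 was listed at 0. A few neuronal genes were not specific to either line: UCHL1 was at 596 in CHP-134 and 525 in RPE1, and DPYSL3 at 167 and 457.

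Catecholamine enzymes and vesicle proteins of CHP-134 stood at different levels. TH and DBH, the enzymes that open catecholamine synthesis and turn dopamine into noradrenaline, were not measured in either line, at 0.195 and 0.207 ppm in wild type CHP-134. DDC, the decarboxylase between them, was at 1.55. The vesicle proteins were high, with CHGA (chromogranin A) at 355 in wild type CHP-134, 480 in clone 1 and 677 in clone 2 against at most 0.0449 in RPE1, SCG3 at 169 and CHGB at 56.9. The noradrenaline transporter SLC6A2 was at 17 and listed at 0 in RPE1. Of 11 measured genes in this list 8 were higher in CHP-134. A Mean Count under 10 in the RPE1 table was found for 10 of the 18 listed, which could be measured only through CHP-134. PCSK1N and CYB561 lay within 4-fold. SCG5, a chaperone of a prohormone convertase, was higher in RPE1, at 66.9 in wild type RPE1, 15 to 32.5 in its other groups and 0.68 in CHP-134.

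Among neuroblastoma drivers and surface targets, 11 of 16 measured genes were higher in CHP-134 and none in RPE1 (median log2 ratio -5.08). A Mean Count under 10 in the RPE1 table was found for 11 of the 20 listed, which could be measured only through CHP-134. MYCN stood at 1509.9 ppm in wild type CHP-134, 1919 in clone 1 and 1518 in clone 2. In RPE1 it did not exceed 0.00515 in any group, so the wild type ratio was at least 5527-fold. ALK, a receptor tyrosine kinase mutated in familial neuroblastoma, was at 73.3 against 0.0227, and the neurotrophin receptor NTRK3 was at 52.6 against 0.0968. LIN28B, which blocks let-7 maturation, was at 126 against 0.0242. IGF2BP1 was at 616 against 20.3. RPE1 held other genes of that oncofetal group, with HMGA2 at 230 (listed at 0 in CHP-134) and IGF2BP2 at 97.2 against 0.142.

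Genes next to MYCN were raised with it over a short stretch. DDX1, an RNA helicase gene that often shares the amplified segment in neuroblastoma, stood at 55351 ppm in wild type CHP-134, which was 5.54% of the whole table, and at 173 in RPE1 (320-fold, log2 ratio -8.32, approximate SE 0.039). It was at 50898 and 46772 in the mutant clones and at 171 to 211 in the other RPE1 groups. NBAS, on the far side of DDX1, was at 571 against 67.9 (log2 ratio -3.07). MYCNOS, which is antisense to MYCN, was at 40.04 and listed at 0 in RPE1, and since the strand setting of the counting is not given in the sources used here, its reads and those of MYCN cannot be told apart. FAM49A and SMC6, the next measured genes on the other side, were not raised, at 1.05 and 95.9 in CHP-134 against 20.9 and 73.9 in RPE1. Among the 20 neighbours counted, 6 were called higher in CHP-134, GREB1, TRIB2, FAM84A, NBAS, DDX1 and MYCNOS, all on the same side of MYCN, and 5 were called higher in RPE1. DNA copy number was not measured here.

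**Figure D2:**
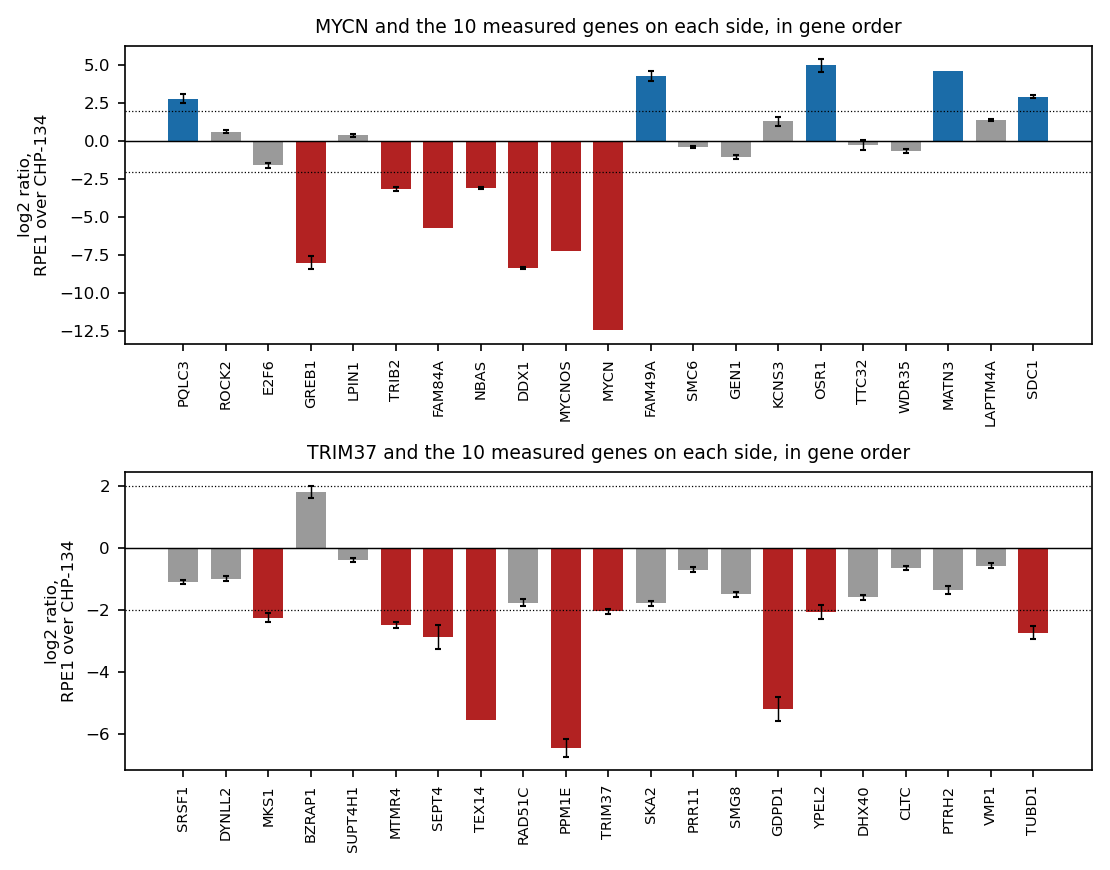
Log2 ratio of wild type RPE1 over wild type CHP-134 (y axis) for MYCN (top) and TRIM37 (bottom) with the 10 measured genes on each side, in gene order. Error bars are approximate 95% intervals and are left off where a level was raised to the floor; dotted lines mark 4-fold. Around MYCN the strongly negative bars stop at MYCN itself, while around TRIM37 bars are negative on both sides with 1 exception, BZRAP1.

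Matrix and adhesion genes made up the other pole. FN1 (fibronectin) stood at 15344 ppm in wild type RPE1, 1.53% of the table, and at 23.6 in CHP-134, a log2 ratio of 9.35 (approximate SE 0.068). THBS1, a matricellular glycoprotein, was at 4054 against 1.36 (log2 ratio 11.54, approximate SE 0.15), with 2107 to 6072 in the other RPE1 groups and 1.53 and 1.62 in the mutant clones. The fibrillin gene FBN1 was at 1883 against 1.69, TGFBI at 690 against 0.509 and the lysyl oxidase LOXL2 at 1187 against 2.24. Of 38 measured collagen and matrix genes 26 were higher in RPE1 and 6 in CHP-134, with a median log2 ratio of 4.28. A Mean Count under 10 was found for 10 of the 43 listed in the CHP-134 table and for 5 in the RPE1 table. Such genes could be measured only through the other line.

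Collagen genes differed in both directions. The basement membrane chains COL4A1 (904 against 15.4) and COL4A2 (1065 against 36.3), and COL8A1 (547, listed at 0 in CHP-134) and COL12A1 (424 against 0.623), were higher in RPE1. COL5A1 was the reverse, at 0.334 in RPE1 and 85.9 in CHP-134, and so were COL6A2 (0.132 against 32.1), COL1A2 (0.589 against 18.1) and the matrix gene FBLN1 (0.269 against 180). COL5A2, the partner chain of COL5A1, was higher in RPE1 at 274 against 4.32. COL1A1 was called higher in RPE1 at 98.6 against 13.9, but stood at 10.2 in untreated TetOn clone 4 and 60.6 in clone 5, so this call did not hold with clone 4.

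Integrins went with the matrix. Of 17 measured, 14 were higher in RPE1 and 2, ITGA9 and ITGA2B, in CHP-134 (median log2 ratio 4.10). ITGA5, the fibronectin receptor chain, was at 1548 against 0.827, ITGA3, a laminin receptor chain, at 2553 against 2.38 and ITGB1, the shared partner chain, at 2399.8 against 201. ITGA1 lay within 4-fold, at 23.8 and 25. Actin genes followed: 20 of 23 contractile genes were higher in RPE1 and none in CHP-134 (median log2 ratio 3.62), with the myosin light chain MYL9 at 333 against 0.00567 and TAGLN at 573 against 1.85. FLNC, TES and CNN2 were the 3 that lay within 4-fold.

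Most measured genes of the mesenchymal neuroblastoma list and of the annexin and S100A list were higher in RPE1. Of 29 measured mesenchymal neuroblastoma genes 25 were higher in RPE1 (median log2 ratio 4.68). AXL, a receptor tyrosine kinase, was at 1373 in wild type RPE1 and 1094 to 1288 in its other groups and was listed at 0 in all 3 CHP-134 groups. The intermediate filament gene VIM was at 6342 against 352, so it was the level and not the presence that differed. NOTCH2 was at 524 against 0.0131, whereas NOTCH3 went the other way at 0.938 against 9.38. Of 15 measured annexin and S100A genes 13 were higher in RPE1 and none in CHP-134 (median log2 ratio 4.87), among them ANXA1 (475 against 0.0185), S100A6 (880 against 7.4) and S100A16 (341, listed at 0 in CHP-134). A Mean Count under 10 in the CHP-134 table was found for 9 of the 19 listed annexin and S100A genes. The same was found for 10 of the 32 listed mesenchymal genes. All these could be measured only through RPE1. ANXA6 lay within 4-fold at 466 and 375. Of 9 measured caveolar genes 5 were higher in RPE1 and 1 in CHP-134. PTRF (now CAVIN1) was at 859 against 0.367, while the muscle cavin MURC was higher in CHP-134 at 34.4 against 1.31.

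YAP1, WWTR1 and most of their targets were higher in RPE1. YAP1 was at 266 ppm in wild type RPE1 and 240 to 303 in its other groups, and at 13.4, 9.27 and 15.7 in CHP-134 wild type, clone 1 and clone 2 (log2 ratio 4.30, approximate SE 0.11). WWTR1 was at 135 against 0.0894, at least 391-fold. The TEAD factors that bind DNA lay within 4-fold in all 4 cases, with TEAD1 at 299 in RPE1 and 220 in CHP-134 and TEAD4 at 26.6 and 28.4. The kinase LATS2, the atypical cadherins FAT1 and FAT4 and both co-activators were the 5 of 20 Hippo pathway members called higher in RPE1, and DCHS1, a ligand cadherin of FAT4, was higher in CHP-134 at 167 against 0.744. Of 26 YAP and TEAD target genes 18 were higher in RPE1 and none in CHP-134, and the median log2 ratio was 4.77. A Mean Count under 10 in the CHP-134 table was found for 8 of the 26, which could be measured only through RPE1. CYR61 (now CCN1) was at 974 against 1.05, CTGF (now CCN2) at 451 against 0.542, ANKRD1 at 1099 against 0.00483 and CRIM1 at 1687, listed at 0 in CHP-134. Both ANKRD1, a nuclear cofactor, and CTGF, a secreted matricellular protein, moved within RPE1 as well: ANKRD1 ranged from 342 to 1172 and CTGF from 384 to 997 over the 6 groups. AMOTL1, RBMS3 and FJX1 were targets within 4-fold, at log2 ratios of 0.19, -0.72 and -0.49.

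The 2 promoters below belong to classical YAP targets of the list and are shown because each holds more than 1 copy of GGAATG, the core of the TEAD motif. Each is the 250 bases before the RefSeq start on build GRCh38.p14, minus strand, written 5′ to 3′, at chr6:131951373-131951622 for CCN2 and chr10:90921088-90921337 for ANKRD1, with each GGAATG or its reverse complement in capitals.
CCN2: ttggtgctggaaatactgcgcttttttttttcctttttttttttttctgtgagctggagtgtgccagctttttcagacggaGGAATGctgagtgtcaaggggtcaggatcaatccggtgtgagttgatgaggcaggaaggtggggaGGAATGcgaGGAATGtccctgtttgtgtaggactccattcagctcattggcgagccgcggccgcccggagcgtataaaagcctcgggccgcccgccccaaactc
ANKRD1: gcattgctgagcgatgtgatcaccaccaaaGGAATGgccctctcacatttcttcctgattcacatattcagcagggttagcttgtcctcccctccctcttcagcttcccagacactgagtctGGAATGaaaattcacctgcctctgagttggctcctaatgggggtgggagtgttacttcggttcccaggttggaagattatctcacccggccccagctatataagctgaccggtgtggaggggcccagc
CCN2 held 3 copies, and ANKRD1 and the list member NUAK2 held 2 each. Promoters of 9935 measured genes could be matched by symbol, and 920 (9.26%) held the motif on either strand. It was in 166 of 1389 promoters of genes higher in RPE1, in 96 of 1109 (8.66%) of genes higher in CHP-134 and in 6 of 21 promoters of the target list. The AP-1 motif TGANTCA, bound by FOS and JUN dimers, was in 3.62% of all, 7.34% of the RPE1 set and 3.43% of the CHP-134 set. The AP-1 gene FOSL1 stood at 318 in RPE1 against 0.0238 in CHP-134, and FOSL2 at 169 against 2.7. CACGTG, the E-box that MYC family proteins bind, was in 9.11% of all, 4.97% of the RPE1 set and 8.93% of the CHP-134 set. The median share of G or C was 65.6% over all and 66.4% and 66.8% in the 2 sets. A match of letters is a description and not a binding site.

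**Figure D3:**
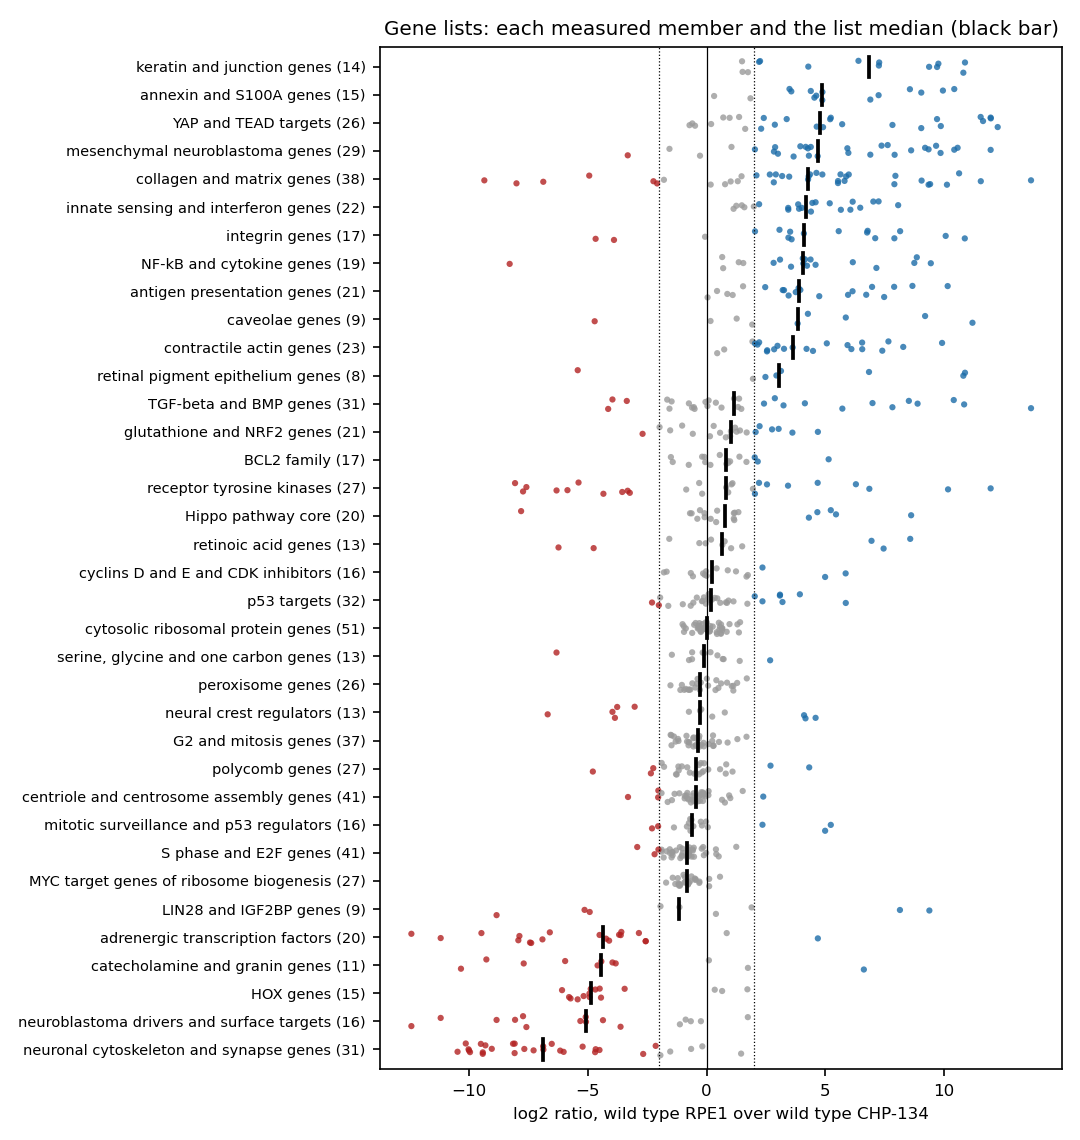
Log2 ratio of wild type RPE1 over wild type CHP-134 (x axis) for every measured member (points) of each gene list with 5 or more measured members, with the list median as a black bar and the number of measured members in brackets. Points are blue at 4-fold or more higher in RPE1, red at 4-fold or more higher in CHP-134 and grey between; the medians run from -6.88 for neuronal genes to 6.82 for keratin and junction genes, with the G2 and mitosis, peroxisome and ribosomal protein lists between -0.38 and 0.01.

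With 1 exception, the immune genes that passed 4-fold were higher in RPE1. Of 21 measured antigen presentation genes 16 were higher in RPE1 and none in CHP-134 (median log2 ratio 3.87). B2M, the light chain of class I molecules, was at 681 against 71.2, TAP1, the peptide transporter, at 24.4 against 0.0056 and the immunoproteasome subunit PSMB8 at 43.1, listed at 0 in CHP-134. HLA-C was at 391.6 against 0.2 and HLA-B at 234 against 0.981; reads from near-identical class I genes may have been split between them, so both values are uncertain. Of 22 genes of innate sensing and interferon response 17 were higher in RPE1 and none in CHP-134 (median log2 ratio 4.20). TMEM173 (STING), the adaptor of the DNA-sensing pathway, was at 52.2 in wild type RPE1 and 28.2 to 46.7 in its other groups and was listed at 0 in all 3 CHP-134 groups. MB21D1 (cGAS), the sensor upstream of it, was not measured in either line, at 0.0234 and 0.0632. In the NF-kB and cytokine list 14 of 19 measured genes were higher in RPE1, such as LIF (239 against 0.262) and CSF1 (73.4 against 0.517). The chemokine CXCL12 was the exception, at 85.7 in CHP-134 and listed at 0 in RPE1. A Mean Count under 10 in the CHP-134 table was found for 8 of the 22 listed antigen presentation genes. The same was found for 16 of 30 listed innate sensing and interferon genes and 18 of 30 listed NF-kB and cytokine genes. All these could be measured only through RPE1.

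Receptors for growth signals were divided between the lines. Of 27 measured receptor tyrosine kinases 9 were higher in RPE1 and 10 in CHP-134. MET (603 against 0.525), EGFR (145 against 5.66), EPHA2 (313 against 4.01) and EPHB4 (65.6 against 0.568) were among those higher in RPE1. KIT (21.8), FGFR4 (17) and ERBB4 (12.4) were among those higher in CHP-134, against 0.0398, 0.292 and 1.31 in RPE1. The TGF-beta receptor TGFBR2 was at 126 in RPE1 and 0.0478 in CHP-134, while its partner TGFBR1 was at 56.4 and 157. In that pathway 12 of 31 measured genes were higher in RPE1 and 3 in CHP-134. Of 39 HOX genes in the files, only 15 were measured. HOX genes together summed to 4.57 ppm in wild type RPE1 and 126 in wild type CHP-134, where 21 of the 39 had a Mean Count under 10 and 12 of these were listed at 0. The 12 that were called passed the level filter through CHP-134, where they are higher, and were led by HOXA7 (18.6, listed at 0 in RPE1), HOXC4 (15.1 against 0.0226) and HOXC8 (19.8 against 0.374). HOXC8 stood at 3.84 in the RPE1 knockout. HOXB3, HOXB6 and HOXB9 were the measured members within 4-fold. In the authors' deposited comparison their log2 fold changes in the RPE1 knockout over wild type were 3.07, 3.86 and 5.46. Of 13 neural crest regulators, SOX9, TFAP2A and ETS1 were higher in RPE1 and SNAI1, TWIST1, ZIC1, MSX2 and ID2 in CHP-134.

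Genes of the pathway that the study addressed differed less than the markers above. TRIM37 stood at 69.0 ppm in wild type RPE1 and 282 in wild type CHP-134, a log2 ratio of -2.03 (approximate SE 0.040) that is just past the 4-fold limit. The RPE1 knockout was at 17.9 and the CHP-134 mutant clones at 89.4 and 84.2, so both partial knockouts lay above wild type RPE1. Untreated TetOn clones 4 and 5 were at 148 and 265, and with doxycycline at 1352 and 1650.4. Against these untreated clones the log2 ratio was -0.93 and -0.09, and TRIM37 was not called. Both clones carry the TRIM37 transgene, so for this gene they do not stand for wild type RPE1. The part of the transgene in their untreated levels was not tested. PLK4 ranged from 50.5 to 65.4 in the RPE1 groups and from 60.9 to 72.3 in CHP-134, with overlapping ranges and a wild type log2 ratio of -0.52 (approximate SE 0.045). CEP192, a centrosome scaffold that TRIM37 acts on, was at 66.0 and 73.8 in RPE1 and CHP-134, with the groups overlapping. Of the other genes of the mitotic surveillance pathway, TP53BP1 was at 110 and 196 and USP28 at 35.9 and 60.3. The ubiquitin ligase MDM2 was at 92.8 in RPE1 and 137 in CHP-134, the cell cycle inhibitor CDKN1A at 217 and 42.5 (log2 ratio 2.35, approximate SE 0.057) and TERT, the telomerase gene, at 4.81 and 6.36; whether the counting captured the telomerase construct of RPE1 is not given in the sources used here.

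**Figure D4:**
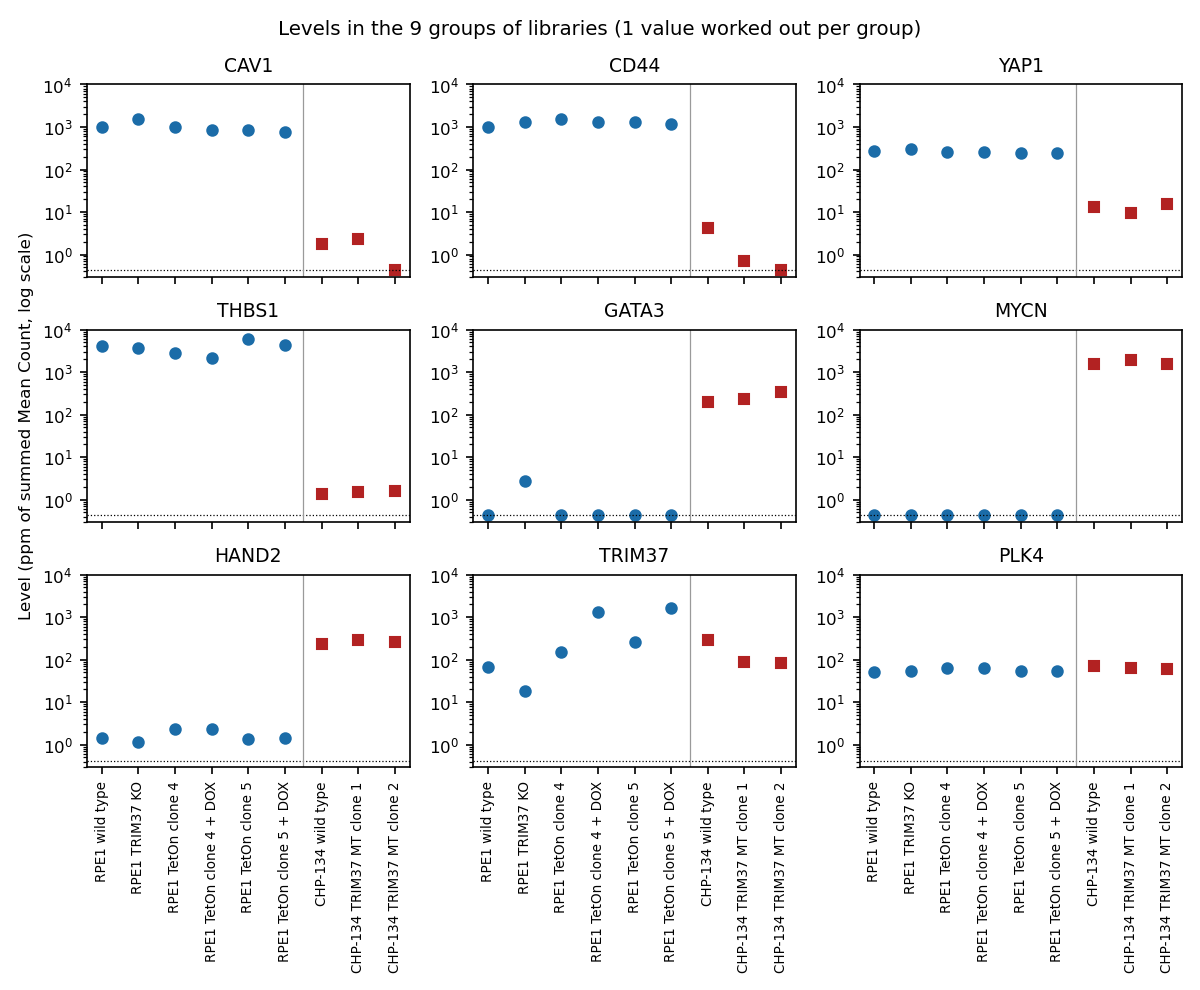
Level of 9 genes (y axis, ppm of summed Mean Count, log scale) in each of the 6 RPE1 groups (circles) and 3 CHP-134 groups (squares), 1 value per group; levels under the dotted floor are drawn on it. CAV1, CD44, YAP1 and THBS1 are high in every RPE1 group, GATA3, MYCN and HAND2 in every CHP-134 group, TRIM37 follows the genotype and transgene, and PLK4 is near a common level throughout.

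Few centriole and cell cycle genes passed 4-fold. Of 41 measured centriole and centrosome assembly genes 1 was higher in RPE1 (CEP55, an abscission protein, at 232 against 44.3) and 3 in CHP-134, and the median log2 ratio was -0.46, or -0.23 once the median of genes at 100 or more in both tables was set to 0. The 3 were TRIM37 itself, CEP120 at 21.4 against 212, and CEP85 at 44.7 against 184, and with the median set to 0 only 1 gene was called. DNA replication genes leaned to CHP-134, with 37 of 41 S phase genes below 0 at a median of -0.82. With the median of genes at 100 or more in both tables set to 0, 33 were below 0 at a median of -0.59. Only RFC3, E2F1 and E2F2 passed 4-fold, and only 1 gene did so with the median set to 0 or with either TetOn clone as the RPE1 side. None of 37 G2 and mitosis genes, 27 MYC target genes of ribosome biogenesis, 51 cytosolic ribosomal protein genes or 26 peroxisome genes passed 4-fold in either direction. The medians of these lists were -0.38, -0.83, 0.01 and -0.26. Of 32 measured p53 target genes 7 were higher in RPE1, among them FAS (46.9 against 0.809) and RPS27L (173 against 20.4), and 2, PPM1D and BTG2, in CHP-134. CASP8, the initiator caspase of death receptors, was at 12.1 in RPE1 and 0.0056 in CHP-134, at least 35.2-fold. The CDK inhibitors CDKN2A (55.3 against 1.74) and CDKN2B (19.9 against 0.0245) were also higher in RPE1.

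Ratios were not spread evenly over the genome. When the 9611 genes with a Mean Count of 100 or more in both tables and a place on chromosomes 1 to 22 or X were cut, in RefSeq order, into 239 blocks of about 40 genes, the block medians centred on -0.23. A median at or below -0.75 was found in 18 blocks, and 10 of these were consecutive on chromosome 17, from NSRP1 to METRNL. The block that holds TRIM37, from MSI2 to TACO1, and the block before it, from CBX1 to AKAP1, had the lowest medians, both at -1.55. In the TRIM37 block 36 of 39 genes were below 0. It stood at -1.41 and -1.52 with TetOn clones 4 and 5 in place of wild type RPE1, and the block before it at -1.37 and -1.57, so which of both was lower changed with the table. Of the 20 measured neighbours of TRIM37, 19 were lower in RPE1 and 8 of them past 4-fold, with a median log2 ratio of -1.66. Near neighbours SKA2 (76.5 against 261) and RAD51C (21.2 against 71.1) were at log2 ratios of -1.77 and -1.75, and PPM1E, next to TRIM37, was at 1.71 against 148. Over all 727 measured genes of chromosome 17 the median was -0.89.

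In the other direction, 8 blocks had a median of 0.75 or more, and 4 of them lay on chromosome 10, between DNAJC9 and MTG1, with a highest value of 1.35. The median of chromosome 10 was 0.60 over 470 genes, and 107 of them (22.8%) were called higher in RPE1. Smaller runs lay on chromosome 1, where NOC2L to RNF207 stood at 0.79 and the 3 consecutive blocks from STMN1 to MFSD2A at -0.86 to -0.99, on chromosome 3 (SLC26A6 to CYB561D2 at 0.82 and ZNF639 to TBCCD1 at -1.06) and on chromosome 7, where the 2 blocks from ZNF277 to ZNF786 stood at -0.83 and -0.99. Gain of the long arm of chromosome 17 is common in neuroblastoma, as background; copy number was not measured in these cells, and its part in the result was not tested.

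**Figure D5:**
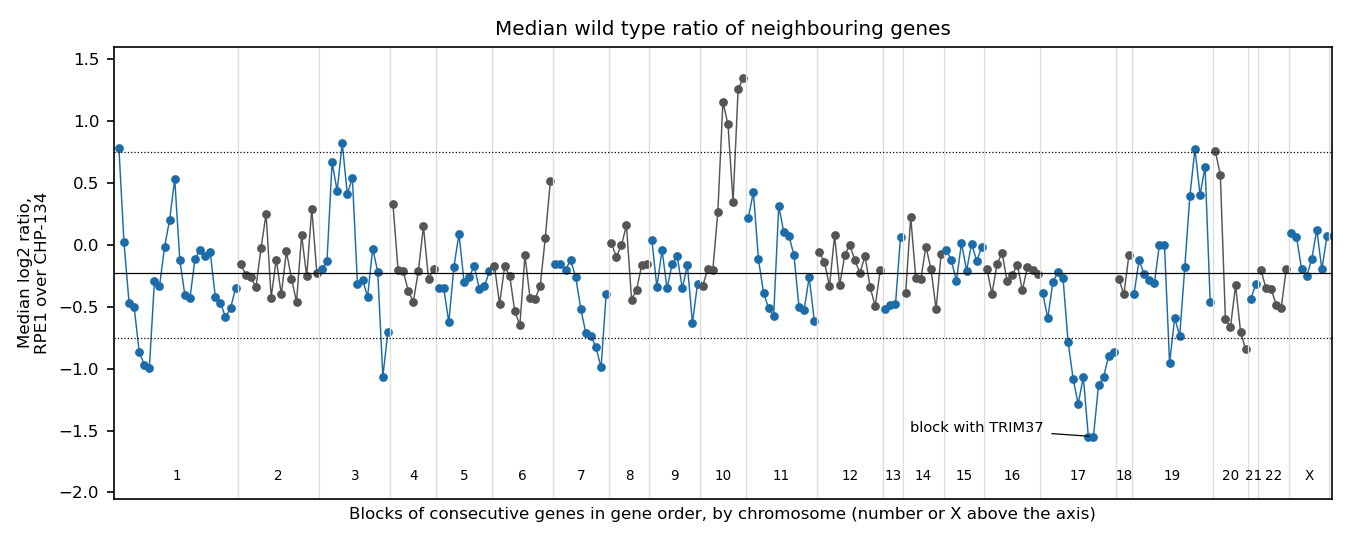
Median log2 ratio of wild type RPE1 over wild type CHP-134 (y axis) in blocks of about 40 neighbouring genes, in gene order by chromosome (x axis). The solid line is the median of the blocks and the dotted lines are at -0.75 and 0.75; a run of low blocks on chromosome 17 reaches -1.55 at the block with TRIM37 and the block before it, and the high blocks of chromosome 10 reach 1.35.

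A minority of the line differences was not stable within RPE1. With an untreated TetOn clone as the RPE1 side, 13 (clone 4) and 8 (clone 5) of the genes higher in wild type RPE1 turned to the CHP-134 side, and 2 and 0 of those higher in CHP-134 turned. The following were chosen after their values were seen. ZNF185 was at 73.6 in wild type RPE1 and 70.1 in clone 4 but at 1.78 in clone 5, against 3.18 in CHP-134, and ARMCX2 was at 55.5, 59.9 and 2.31 against 6.82. NRXN3 was at 35.5 in wild type, 0.263 in clone 4 and 16.8 in clone 5 against 0.991. MYRF was at 120 in wild type and at 10.5 to 23.5 in the knockout and both clones, against 26.7 in CHP-134. A stretch of chromosome 12, in consecutive blocks from KDM5A to ANO6, also moved. Its block medians were -0.06, -0.14 and -0.33 with wild type RPE1. They were 0.71, 0.89 and 0.43 with clone 4 and -0.27, -0.14 and -0.30 with clone 5.

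Genes higher in RPE1 also often differed between the RPE1 TRIM37 knockout and its wild type. To keep the choice apart from the knockout's own table, 1405 genes were taken that stood 4-fold or more above wild type CHP-134 in both untreated TetOn clones. In the authors' deposited table of RPE1 knockout against wild type, 1350 of them were usable, and at the authors' q under 0.05 501 (37.1%) were up and 558 (41.3%) down, against 26.6% and 26.9% of all usable genes. The part of their higher level in these shares was not tested.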

How the data were processed

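RNA sequencing of 39 libraries in 9 groups was reduced by the authors to 5 tables, with STAR and DESeq2 per the submitters' processing notes. The versions, the build, the annotation and how reads were counted were not given in the sources used here. Per the file headers, each deposited table lists for 23710 genes a Status, a Mean Count (a count scaled in a way that is not stated), a log2 fold change with its SE, and an adjusted p-value (q). Depth per library is unknown. Fold changes of genes with a Mean Count under 1 did not exceed 0.833 in size in the RPE1 table, as in shrunken estimates, so levels of scarce genes are approximate.

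The wild type level was the Mean Count divided by 0.5 plus 0.5 times the ratio of altered over wild type, as both groups of a table have equal size, then scaled to ppm of the table's summed Mean Count (36605941 in the RPE1 table and 28988295 in the CHP-134 table). This sum is not a library depth. The sign of TRIM37 set the direction of each table. The approximate SE of a log2 ratio is the root of the summed squares of both tables' SEs, divided by the root of 2. No count model was fitted, since the files hold comparisons alone, and the calculation was tested on simulated data. Calls were at 4-fold.

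Genes were named if they had the 12 largest ratios or the 12 highest levels of on and off genes in each direction, were among the 4 largest ratios of a list, or were on a fixed set around TRIM37, MYCN and the markers; others were picked after their values were seen. Some genes that this rule names are not reported here. The members and gene lists were chosen with earlier results of these data known. The share of members called is read against that of all measured genes. Older symbols in the files were matched to RefSeq (GRCh38.p14) for gene order and promoters, with 22697 symbols matched. The alternatives changed the table, the scaling, the filters, the limit and the RPE1 groups. Differences between lines in the change on TRIM37 loss were divided by the root of the summed squared SEs, given a two-sided normal p-value and adjusted with the Benjamini-Hochberg method over 11194 (clone 1) and 11160 (clone 2) genes. Python 3.11.15, numpy 2.4.6 and pandas 2.3.3 were used.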

Additional observations from a re-analysis of the deposited data

Results flagged for a closer look

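The change on loss of TRIM37 was compared between the lines for 11 genes of the report, as the log2 fold change in the authors' deposited table of the RPE1 knockout minus that in the authors' deposited table of a CHP-134 mutant clone. The comparisons with clone 1 and clone 2 share the RPE1 table and the CHP-134 wild type libraries. The SEs behind each adjusted p cover the spread between libraries and not that between clones. Each p therefore concerns the RPE1 knockout against 1 mutant clone, and not the lines in general. A difference with an adjusted p under 0.05 brought a gene here. The fall of the transcript itself differed: TRIM37 fell by 1.95 in RPE1 in the authors' deposited table, and the difference was -0.29 for clone 1 and -0.20 for clone 2.

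CD44 and CAV1 had the largest differences of these 11 genes, each with clone 2. In the authors' deposited tables CD44 rose by 0.37 in the RPE1 knockout and fell by 2.58 and by 4.54 in CHP-134 clones 1 and 2, differences of 2.95 (adjusted p = 3.03e-29) and 4.91 (adjusted p = 6.91e-51). CAV1 differed by 2.52 for clone 2 (adjusted p = 5.2e-20) and by 0.15 for clone 1 (adjusted p = 0.552), and YAP1 by 0.72 for clone 1 (adjusted p = 5.61e-05) and -0.0010 for clone 2 (adjusted p = 0.997). CD44 and CAV1 were at low levels in CHP-134, with 4.21 and 1.75 ppm in wild type. The part of this low level in the difference was not tested.

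Genes of the centriole and p53 pathways differed as well. PLK4 differed by 0.25 (adjusted p = 0.000627) and 0.33 (adjusted p = 1.35e-05) for clones 1 and 2, being slightly up in RPE1 and slightly down in both clones. CDKN1A, up in the RPE1 knockout and in both clones, differed by -0.67 and -1.33, which is the larger rise in the CHP-134 clones. MDM2 differed by 0.89 and 0.81 and TERT by 0.73 and 0.62. CEP192 differed by 0.17 for clone 1 alone and TP53BP1 by -0.16 for clone 2 alone. USP28 did not pass with either clone (adjusted p = 0.837 and 0.68).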

How the results depend on the processing

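No paired analysis was possible because the files give no value per library, and for the same reason no replicate could be left out. Of the 28 alternative values of the 2 main counts, 24 were within 1.5 times the count reported. With a Mean Count of 100 required in both tables, 634 genes were higher in RPE1 and 413 in CHP-134, a filter that removes genes absent from a line. At 2-fold these counts were 2795 and 3115. With the untreated TetOn clones 4 and 5 as the RPE1 side they were 1539 and 1575 higher in RPE1 and 1679 and 1644 higher in CHP-134, and with the median log2 ratio set to 0 they were 1926 and 1368. Among 31 lists, 6 of 155 alternative counts moved: centriole genes higher in CHP-134 went from 3 to 1 with the median set to 0; S phase genes went from 3 to 1 with the median set to 0 and with either TetOn clone; BCL2 family genes higher in RPE1 went from 3 to 1 with TetOn clone 4 and with the Mean Count used without the group ratio. These are members close to 4-fold. Of 46 alternative chromosome medians 14 moved by more than the SD over the 3 RPE1 groups: with 100 in both tables, chromosome 10 stood at 0.54, 13 at -0.32, 15 at -0.13, 2 at -0.20, 22 at -0.35, 5 at -0.29, 6 at -0.28, 7 at -0.40, 8 at -0.13, 9 at -0.29 and X at -0.029; with the clone 2 table, 13 stood at -0.27, 3 at 0.031 and 8 at -0.19. Chromosome 17 was not among them. Of the alternative values of 278 genes, those of the naming rule and all others named in the text, 1341 kept direction and side of the 4-fold limit, 31 fell inside it, 12 passed it and 6 reversed. The reversed log2 ratios, all with a TetOn clone as the RPE1 side, were COL1A1 at -0.45, NRXN3 at -1.39 and MYRF at -0.18 with clone 4, and MYRF at -1.34, ZNF185 at -0.84 and ARMCX2 at -1.56 with clone 5. Precision is that of the authors' SEs, and levels under the floor are bounds.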

Other observations

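Lists that the report leaves out were mixed. Of 21 measured glutathione and NRF2 genes 6 were higher in RPE1 and 1, GSTA4, in CHP-134, with NQO1, a quinone reductase, at 284 against 11.1 and the cystine transporter SLC7A11 at 88.5 against 7.24 ppm of the summed Mean Count. Of 13 retinoic acid genes 3 were higher in RPE1 and 2 in CHP-134. The retinaldehyde dehydrogenases exchanged places there, with ALDH1A3 at 345 against 0.907 and ALDH1A1 at 0.0427 against 7.39, and the receptor gene RARB was at 78.1 against 0.446. Of 27 polycomb genes 2 were higher in RPE1 (PCGF5 and CBX7) and 3 in CHP-134 (CBX2, PCGF1 and RBBP4), and CBX2, a chromodomain subunit, was at 12.8 against 354. Of 13 serine, glycine and one-carbon genes 1 was higher in each line, and the mitochondrial folate enzyme ALDH1L2 was at 0.52 against 41.6. In the polycomb list and in this list the shares called did not exceed those over all measured genes (14.3% higher in RPE1 and 12.3% in CHP-134).

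Genes of highest level among those at 100 or more in the CHP-134 table and under 1 in the RPE1 table included some outside every list. IGSF1, an immunoglobulin superfamily gene, stood at 1653 ppm in wild type CHP-134 and 1244 and 1473 in the mutant clones, and PRAME, a tumour antigen, at 718, 704 and 757, listed at 0 in all 6 RPE1 groups. NNAT, an imprinted gene, was at 704 and 800 in wild type and clone 1 and at 325 in clone 2. On the RPE1 side, MSN (moesin, a linker of membrane and actin) was at 1498 in wild type and 1106 to 1304 in its other groups and was listed at 0 in all 3 CHP-134 groups.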
